A study of Oryza sativa with 20 samples.

Results

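The light-harvesting antenna genes of photosystem II were followed in 2 tissues of the rice (Oryza sativa) seedling leaf. The group was set as a list of gene IDs: CAB1R (OS09G0346500), CAB2R (OS01G0600900), LHCB1 (OS01G0720500), LHCB2 (OS03G0592500), LHCB3 (OS07G0562700), LHCB4 (OS07G0558400), LHCB5 (OS11G0242800) and LHCB6 (OS04G0457000). These are 8 of the 37829 rice gene IDs measured. RNA-seq libraries were made from the lamina joint (LJ), the hinge between blade and sheath, and from blade pieces of the first complete leaf. Each tissue was taken at 5 stages, S1 to S5, with 2 libraries per tissue and stage, 20 in 10 groups. All seedlings were grown in water under the same day and night cycle, and the labels give no cultivar, genotype or treatment that sets the groups apart. Collection days 4, 5, 6, 7 and 9 after germination are listed, with no day assigned to a stage.

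Photosystem II gathers light through chlorophyll a/b-binding proteins, which are made from nuclear genes and built into the thylakoid membranes of chloroplasts. The major antenna, LHCII, is a trimer of LHCB1, LHCB2 and LHCB3 proteins, and CAB1R and CAB2R are rice genes for the LHCB1 type. The minor antenna proteins are monomers that link the trimers to the reaction centre: LHCB4 is CP29, LHCB5 is CP26 and LHCB6 is CP24. Transcripts of this family are known for high abundance in green leaf cells, for their response to light, and for daily rhythms under the circadian clock.

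Levels are in FPKM, which scales fragments by the length of the transcript and by library size, so that genes can be set side by side in this unit. The number of reads behind each value is unknown. All 8 genes passed the filter of 1 FPKM in at least 2 libraries, as did 26403 genes in all. A library's FPKM over all rice gene IDs summed to between 860684 and 1079325, and the correlation of replicates across genes was lowest in blade S4, at 0.914, and highest in LJ S1, at 0.983. Separate plants are not stated for the 2 libraries of a group, and the p-values therefore measure only the spread between libraries, which may be technical. The tissue labels were checked with LG1, a transcription factor needed to form the lamina joint: it stood at 3.34 to 24.4 FPKM in the LJ libraries, against 1.35 to 4.24 FPKM in the blade libraries. The 2 ranges overlap. At S2 LG1 was higher in LJ by only 0.17 on the log2(FPKM + 1) scale, so the check does not tell the tissues apart at that stage.

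The antenna genes differed widely in abundance. Over the 20 libraries, the median rank by FPKM among rice gene IDs was 30.5 for LHCB2, 31.5 for CAB1R, 170 for LHCB5 and 954.5 for LHCB6, and LHCB1 ranked anywhere from 2 to 13453. The 8 genes together made up 0.193% of the FPKM total in the lowest LJ library, at S1, and 5.92% in the highest, at S4. In blade they made up 0.581% in the lowest library, at S2, and 8.98% in the highest, at S4. LHCB2 was the most abundant of the 8 in every library of S1, S2 and S3, and ranked first among all rice gene IDs in blade S3 replicate 1, at 11111 FPKM. LHCB1 took its place in all 4 libraries of S4. At S5 the leading gene was CAB1R in both LJ libraries and LHCB2 in both blade libraries. LHCB6 was the least abundant of the 8 in 18 of 20 libraries, and LHCB1 in the other two, the first LJ and blade libraries of S5.

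**Figure D1:**
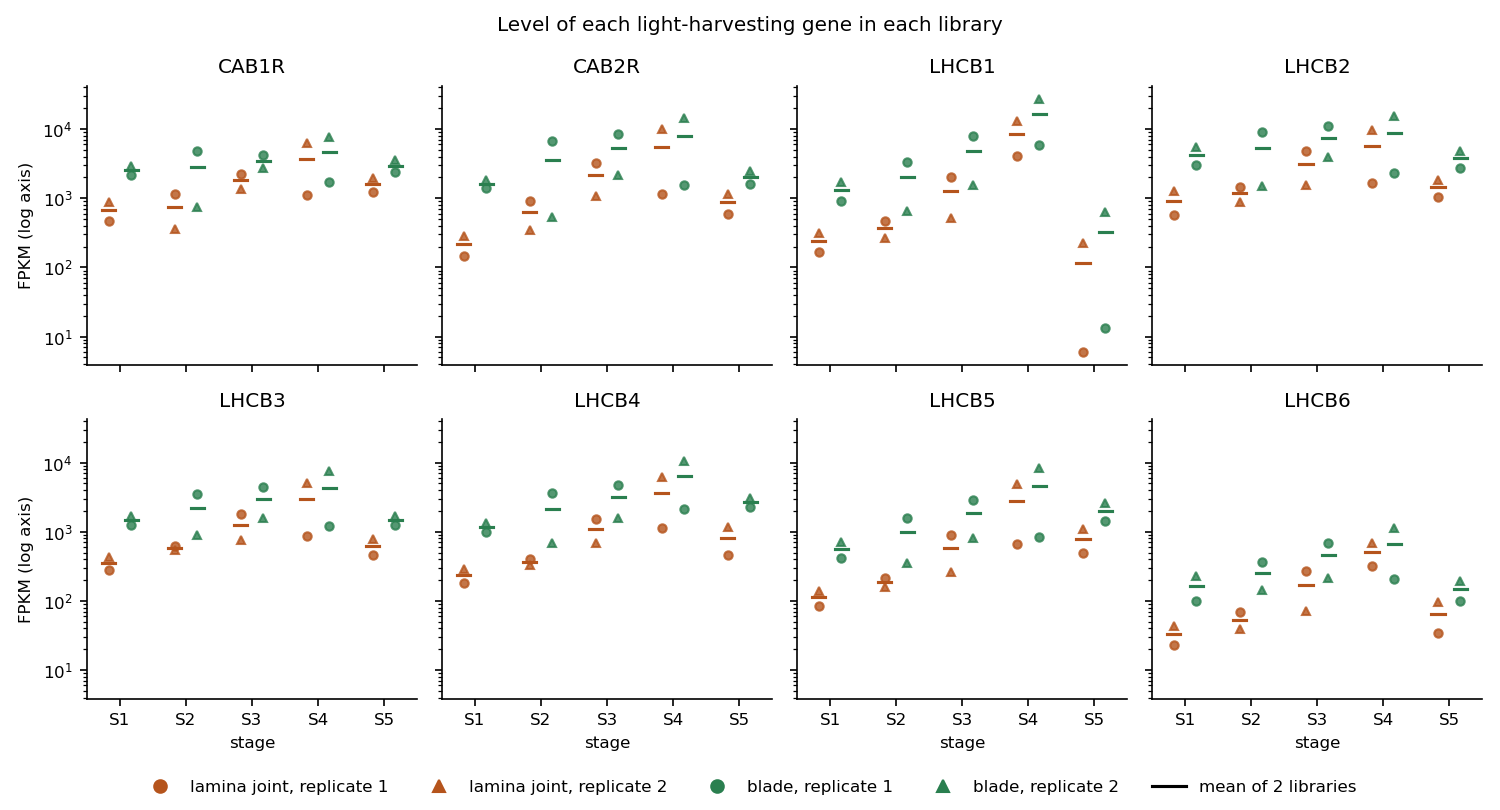
Level of each of the 8 genes in every library, in FPKM on a log axis, with LJ on the left and blade on the right at each stage; symbols mark replicates 1 and 2, and bars mark the mean of 2 libraries. Every gene has its highest group mean in FPKM in blade at S4, where replicate 2 is above replicate 1 for all 8. LHCB1 stands at S5 at 5.90 FPKM in LJ replicate 1 and 13.3 FPKM in blade replicate 1.

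Among the trimeric antenna genes, CAB1R varied least between groups. In LJ, CAB1R stood at 463 and 892 FPKM at S1, 1152 and 362 at S2, 2249 and 1374 at S3, 1117 and 6246 at S4, and 1239 and 1934 at S5 (replicates 1 and 2). In blade, it stood at 2149 and 2977 FPKM at S1, 4841 and 759 at S2, 4240 and 2771 at S3, 1725 and 7573 at S4, and 2387 and 3554 at S5. LJ lay below blade without overlap at S1, S3 and S5, and the libraries of the tissues overlapped at S2 and S4. The highest group mean of CAB1R, blade at S4, was 6.86 times the lowest, LJ at S1.

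CAB2R, the other gene named CAB, had a wider range. Its group mean was lowest in LJ at S1, at 216 ± 101 FPKM, and highest in blade at S4, at 7916 ± 9030 FPKM (SD, n = 2 each), 36.6 times the lowest. In the S4 libraries it stood at 1160 and 10037 FPKM in LJ and at 1530 and 14301 FPKM in blade. The first library of each tissue was low and the second high, so the tissues overlapped, and they were separate only at S1 and S5.

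LHCB1 had the widest range of the family. In LJ it stood at 169 and 319 FPKM at S1, 476 and 269 at S2, 2050 and 511 at S3, 4083 and 12919 at S4, and 5.90 and 225 at S5. In blade it stood at 905 and 1696 FPKM at S1, 3368 and 660 at S2, 8072 and 1572 at S3, 5843 and 27532 at S4, and 13.3 and 636 at S5. LHCB1 was high in all S4 libraries, though blade S3 replicate 1 was above blade S4 replicate 1. In blade, both S5 libraries were below all libraries of S1 to S4. In LJ this held for S5 replicate 1 only, as S5 replicate 2, at 225 FPKM, was above S1 replicate 1, at 169 FPKM. The tissues were separate only at S1 and S2. Its highest group mean, blade at S4, was 145 times its lowest, LJ at S5. Reads of near-identical genes can be ambiguous, and the sources used here do not say how reads were divided among CAB1R, CAB2R and LHCB1.

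LHCB2 encodes the trimer subunit whose phosphorylation, as known from Arabidopsis, takes part in moving antenna between the photosystems. In LJ it stood at 574 and 1267 FPKM at S1, 1472 and 878 at S2, 4792 and 1550 at S3, 1664 and 9803 at S4, and 1048 and 1818 at S5. In blade it stood at 3033 and 5463 FPKM at S1, 9126 and 1522 at S2, 11111 and 3938 at S3, 2343 and 15392 at S4, and 2740 and 4825 at S5. LJ lay below blade without overlap at S1, S2 and S5. LHCB3, a subunit of the trimers that sit next to the minor antenna, ran from 278 to 4993 FPKM over the LJ libraries and from 897 to 7503 FPKM over the blade libraries, with the tissues separate at the same stages as for LHCB2.

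Of the monomeric antenna genes, LHCB4 (CP29) kept the tissues apart at the most stages. In LJ it stood at 182 and 292 FPKM at S1, 406 and 326 at S2, 1506 and 686 at S3, 1139 and 6140 at S4, and 460 and 1166 at S5. Blade libraries had 998 and 1321 FPKM at S1, 3644 and 677 at S2, 4701 and 1595 at S3, 2151 and 10553 at S4, and 2299 and 3102 at S5. LJ and blade overlapped at S4 alone.

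In LJ, LHCB5 (CP26) stood at 84.4 and 140 FPKM at S1, 215 and 159 at S2, 904 and 262 at S3, 667 and 4878 at S4, and 494 and 1097 at S5. Its blade levels were 421 and 707 FPKM at S1, 1602 and 347 at S2, 2868 and 806 at S3, 828 and 8410 at S4, and 1424 and 2566 at S5. In both tissues the S5 libraries lay above both S1 libraries.

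LHCB6 (CP24) had the lowest levels. In LJ it stood at 22.8 and 43.9 FPKM at S1, 68.4 and 39.0 at S2, 270 and 71.9 at S3, 320 and 692 at S4, and 34.4 and 95.7 at S5. Blade had 99.1 and 232 FPKM at S1, 368 and 142 at S2, 698 and 211 at S3, 208 and 1127 at S4, and 99.2 and 196 at S5. Its S5 values overlapped its S1 values in each tissue. At S4 the first LJ library was above the first blade library, the only such case among the 80 comparisons of a gene in same-numbered libraries.

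The 10 group means of each gene were ordered from lowest to highest. LJ at S1 was lowest for 7 genes and LJ at S5 for LHCB1, and blade at S4 was highest for all 8, under the FPKM scaling as deposited. The blade S4 means rest largely on replicate 2. For CAB1R, CAB2R, LHCB2, LHCB3 and LHCB6, blade S4 replicate 1 was below both blade S3 libraries, which did not hold for LHCB1, LHCB4 and LHCB5. On the log2(FPKM + 1) scale, LHCB2 in blade was slightly lower at S4 than at S3, at -0.14 ± 1.06 (SE). Most neighbours in these orders were not distinguishable: of 9 neighbouring pairs of groups, libraries overlapped in 9 for LHCB2, in 8 for CAB1R, LHCB1, LHCB3 and LHCB6, and in 7 for CAB2R, LHCB4 and LHCB5. The ratio of the higher to the lower library of a group had its largest median over the 8 genes at S4, at 5.68 in LJ and 5.82 in blade. The widest ratios of a single gene were those of LHCB1 at S5, at 38.0 in LJ and 47.6 in blade.

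The first comparison set LJ against blade, averaged over the 5 stages. Antenna transcripts were lower in LJ: 7 of the 8 genes fell below blade, and LHCB1 was not called. A call is a limma p on log2(FPKM + 1) that stays under 0.05 after Benjamini-Hochberg adjustment over the tested genes, and 15.1% of all tested genes were called lower. The median difference was -1.48 for the 8 genes and 0.13 for all genes. In bulk tissue, fewer green cells and less antenna RNA per cell cannot be told apart.

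LHCB4 was lower in LJ by -1.71 ± 0.43 (SE) on the log2 scale (limma adjusted p = 0.00534), and in 10 of 10 pairs of same-numbered libraries. LHCB6 differed by -1.42 ± 0.40 (adjusted p = 0.0113 with limma), and was lower in 9 of 10 pairs. The other called genes were lower in 10 of 10 pairs each: LHCB5 by -1.58 ± 0.50, LHCB2 by -1.44 ± 0.48, LHCB3 by -1.33 ± 0.42, CAB2R by -1.52 ± 0.57 and CAB1R by -1.17 ± 0.43, with limma adjusted p between 0.0188 and 0.0444. LHCB1 had a difference of -1.67 ± 0.76 (limma adjusted p = 0.092) and was lower in LJ in 10 of 10 pairs. The single-library ratio of LJ to blade ran from 0.104 to 1.54 over the 80 comparisons, with a median of 0.383. Calls near the threshold were lost when a single library was left out: the count was 3 of 8 without LJ S3 replicate 2, blade S2 replicate 1 or blade S3 replicate 1. It was 4 of 8 without LJ S1, S4 or S5 replicate 1, blade S1 replicate 2, blade S4 replicate 2 or blade S5 replicate 2.

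The gap between the 2 libraries of a group was partly shared by the tissues of a stage, least so at S2. LJ and blade libraries with the same number were therefore also compared as pairs. Across genes, the gap between the 2 replicates in LJ correlated with that in blade of the same stage at 0.478, 0.213, 0.663, 0.774 and 0.516 for S1 to S5. Between different stages this correlation reached 0.197, so the pairing at S2 is weakly backed and paired results at S2 are less certain. With the pairs in the fit, all 8 genes were lower in LJ over the 5 stages, against 21.6% of all tested genes called lower. LHCB1 then differed by the same -1.67 with an SE of 0.14 (limma adjusted p = 9.47e-06), and the SE of the 8 genes lay between 0.11 and 0.18.

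**Figure D2:**
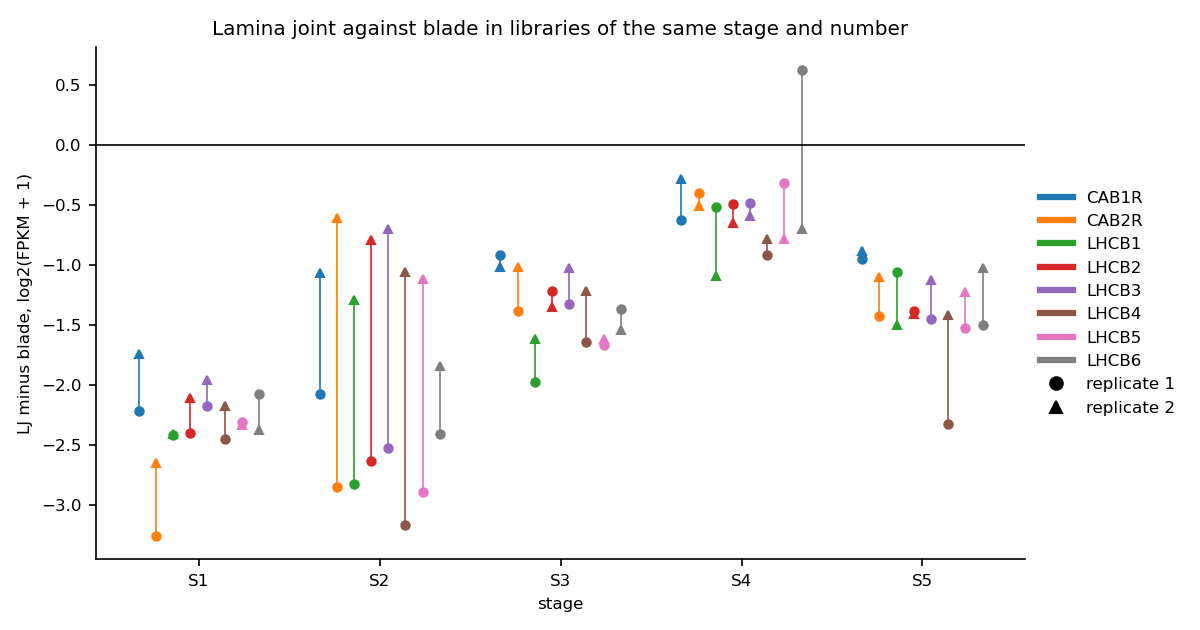
LJ minus blade on the log2(FPKM + 1) scale for each gene, in libraries of the same stage and replicate number, by stage; lines join the 2 pairs of a stage. 79 of the 80 points lie below 0, and the points lie nearest to 0 at S4.

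The median gap between the tissues varied from stage to stage. Of 40 limma tests of whether a gene's gap changed between stages, 0 were called without pairs and 2 with pairs, as given below with the shares of all genes. The median difference of the 8 genes was -2.28 at S1, -1.87 at S2, -1.35 at S3, -0.54 at S4 and -1.28 at S5. As a ratio of FPKM in same-numbered libraries, the median LJ level was 0.682 of the blade level at S4 and 0.199 of it at S1. At S1, CAB2R showed the largest difference, at -2.95 ± 1.28 log2, and CAB1R the smallest, at -1.97 ± 0.95. At S5, LHCB4 showed the largest, at -1.87 ± 0.95, and CAB1R again the smallest, at -0.91 ± 0.95.

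With limma and no pairing, 0 of 8 genes were called at any single stage, and unadjusted p was under 0.05 for 4 genes at S1, 2 at S2 and 0 at S3, S4 and S5. The background of called genes was 16.5% at S1, 22.9% at S2, 16.9% at S3, 7.17% at S4 and 9.19% at S5. With the pairs in the fit, 8 of 8 were lower at S1, against 19.7% of all genes called lower. At S2 the paired count was 8 of 8, against 21.7%, and at S3 it was 8 of 8, against 13.9%. At S4 it was 0 of 8, with 18.3% of genes called in either direction, and 1 of 8 had an unadjusted p under 0.05. At S5 it was 7 of 8, against 6.12% called lower, and CAB2R was not called, at -1.26 ± 0.41 (limma adjusted p = 0.0523). Scaling mattered at S4: quantile normalization put CAB1R, CAB2R and LHCB2 slightly above blade there, at 0.07, 0.29 and 0.05, while upper quartile scaling kept all 8 below.

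Between S4 and S5, LHCB1 transcripts fell steeply in both tissues. In LJ, LHCB1 stood at 5.90 and 225 FPKM at S5, against 4083 and 12919 FPKM at S4. The blade libraries had 13.3 and 636 FPKM at S5, against 5843 and 27532 FPKM at S4. Both S5 libraries were far below both S4 libraries in each tissue. LHCB1 fell by 7.52 ± 1.71 (SE) on the log2 scale in LJ (limma adjusted p = 0.00549) and fell by 7.05 ± 1.71 in blade (limma adjusted p = 0.00639).

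LHCB6 was the only other gene of the 8 called in this step. It fell by 3.01 ± 0.90 in LJ (limma adjusted p = 0.0229), with 34.4 and 95.7 FPKM at S5 against 320 and 692 FPKM at S4. In blade it differed by -1.79 ± 0.90 and was not called, with 99.2 and 196 FPKM at S5 against 208 and 1127 FPKM at S4. Thus 2 of 8 genes fell in LJ, against 9.01% of all genes called lower, and 1 of 8 in blade, against 8.87%. The remaining genes had differences of -2.05 to -0.77 in LJ and -1.24 to -0.31 in blade, none called.

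The S5 fall rests in part on single libraries. For LHCB1 in LJ, the difference was -5.01 without LJ S5 replicate 1 (limma adjusted p = 0.0897). For LHCB1 in blade, it was -4.32 without blade S5 replicate 1 (limma adjusted p = 0.104) and -5.93 without blade S4 replicate 2 (limma adjusted p = 0.0551), and with the blade S4 and S5 libraries alone the limma adjusted p was 0.0535. For LHCB6 in LJ, the call was lost when LJ S4 replicate 2 (-2.46) or LJ S5 replicate 1 (-2.29) was left out. The direction was kept in each of these.

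**Figure D3:**
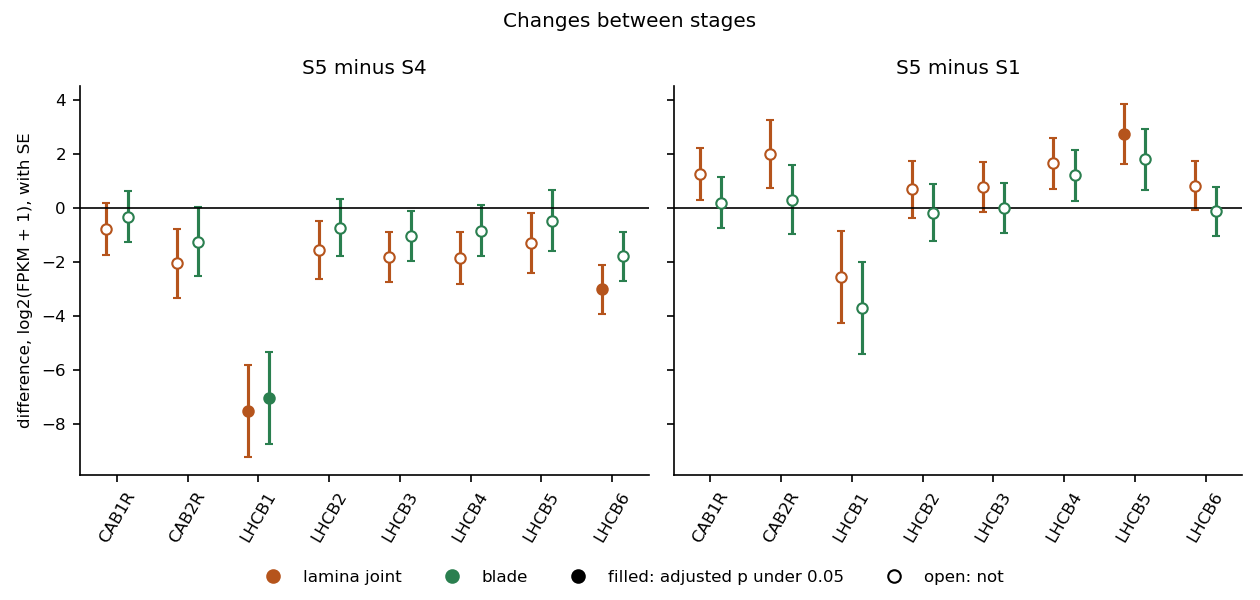
Differences between stages on the log2(FPKM + 1) scale with their SE, for S5 minus S4 and S5 minus S1, with LJ left of blade for each gene; filled points have a limma adjusted p under 0.05. LHCB1 lies at -7.52 in LJ and -7.05 in blade for S5 minus S4, apart from the other 7 genes.

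The whole span of the series was compared as S5 minus S1. In LJ, LHCB5 rose by 2.75 ± 1.13 (limma adjusted p = 0.044), with 494 and 1097 FPKM at S5 against 84.4 and 140 FPKM at S1, and it was the only gene of the 8 called, against 34.7% of all genes called higher. The call of LHCB5 did not hold when genes were not filtered, with upper quartile scaling, or without any 1 library of LJ S1, LJ S2, LJ S5, blade S1 or blade S5, at limma adjusted p of 0.0518 to 0.204. LHCB1 had the opposite sign in LJ, at -2.56 ± 1.71, and the other 6 genes had differences of 0.69 to 2.01, none called. In blade, 0 of 8 genes were called with limma, where 62.7% of all genes were called, and 1 had an unadjusted p under 0.05. That gene was LHCB1, at -3.70 ± 1.71 (limma adjusted p = 0.0731), while LHCB5 had 1.81 ± 1.13. LHCB1 reached a call in blade when blade S5 replicate 2, LJ S5 replicate 1 or LJ S5 replicate 2 was left out, at -6.43, -3.70 and -3.70.

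The change from S1 to S5 was then compared between the tissues. With limma and no pairing, 0 of 8 genes were called, at an unadjusted p under 0.05 for 0 of 8, where 14.6% of all genes were called. All 8 differences were above 0, with a median of 0.95 for the 8 genes and 0.17 for all genes. With LJ and blade as pairs, 1 of 8 was higher, against 21.0% of genes called higher. That gene was CAB1R, whose S5 minus S1 change was larger in LJ than in blade by 1.06 ± 0.34 (limma adjusted p = 0.044). CAB2R followed at 1.69 ± 0.58 and LHCB1 at 1.14 ± 0.44 (limma adjusted p = 0.0534 and 0.0856).

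The neighbouring stages before S4 gave no calls. From S1 to S2 in LJ, 0 of 8 genes were called with limma, with 1.66% of all genes called. From S2 to S3 in LJ the count was 0 of 8, against 23.7%, with differences of 1.00 to 1.71. From S3 to S4 in LJ it was 0 of 8, against 45.3%, with differences of 0.57 to 2.83. In blade the counts were again 0 of 8, against 2.78% for S2 minus S1, 10.5% for S3 minus S2 and 33.0% for S4 minus S3. No gene had an unadjusted p under 0.05 in these 6 comparisons.

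Whether a step differed between LJ and blade was tested in the same fit. With limma and no pairing, 0 of 8 genes were called in each step and 0 had an unadjusted p under 0.05. The background of called genes was 0.114% for S2 minus S1, 3.28% for S3 minus S2, 5.11% for S4 minus S3 and 0.360% for S5 minus S4. With pairs, 0 of 8 were called for S2 minus S1, against 0.239%, for S3 minus S2, against 9.07%, and for S5 minus S4, against 1.35%, where 1 gene had an unadjusted p under 0.05. For S4 minus S3, 1 of 8 was higher, against 10.8% of genes called higher. That gene was LHCB6, with a change larger in LJ than in blade by 1.42 ± 0.41 (limma adjusted p = 0.0429), the step in which its first LJ library passed the first blade library.

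LJ was also set against blade of the stage before it. LJ at S2 minus blade at S1 gave 0 of 8 calls with limma, against 7.68% of all genes, with a median of -1.61. LJ at S3 minus blade at S2 gave 0 of 8, against 1.31%, with a median of -0.58, and LJ at S4 minus blade at S3 gave 0 of 8, against 28.0%, with a median of -0.19. No gene had an unadjusted p under 0.05 in these 3 comparisons. The differences of LJ at S3 from blade at S2 lay between -0.71 and -0.01, smaller in size than the -1.80 to -0.96 between LJ and blade at S3, though the 2 sets of differences share the LJ libraries and were not tested against each other. LJ at S5 minus blade at S4 gave 3 of 8 lower, against 7.57% called lower: LHCB1 at -8.33 ± 1.71, LHCB6 at -3.05 ± 0.90 and LHCB4 at -2.70 ± 0.95 (limma adjusted p = 0.0016, 0.0139 and 0.0333). Without blade S4 replicate 1 this count was 7, and without blade S4 replicate 2 or LJ S5 replicate 1 it was 1.

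The make-up of the family shifted along the stages in both tissues. LHCB1 held 8.11% to 12.2% of the summed FPKM of the 8 genes in the LJ libraries of S1 to S3, then 37.1% and 23.2% at S4, and 0.136% and 2.72% at S5. In blade it held 8.82% to 18.1% at S1 to S3, then 36.9% and 29.8% at S4, and 0.113% and 3.34% at S5. The S4 libraries were thus the highest and the S5 libraries the lowest in each tissue, for both replicates. A share depends on the other 7 genes as well as on LHCB1.

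LHCB5 and LHCB4 took a larger share at S5 than at S1, where the fall of LHCB1 also raises the shares of the other genes. LHCB5 held 11.4% and 13.3% of the sum in LJ at S5, against 4.40% and 3.80% at S1. In blade LHCB5 held 12.1% and 13.5% at S5, against 4.11% and 4.45% at S1. The libraries of S5 and S1 did not overlap in either tissue. LHCB4 held 10.6% and 14.1% in LJ and 19.5% and 16.3% in blade at S5, against 9.49% and 7.95% in LJ and 9.72% and 8.31% in blade at S1. LHCB2 went the other way, with 24.2% and 22.0% in LJ and 23.2% and 25.3% in blade at S5, against 29.9% and 34.5% in LJ and 29.6% and 34.4% in blade at S1.

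The summed FPKM of the 5 trimeric genes was set against that of the 3 monomeric genes in each library. The ratio was 3.38 and 2.50 in LJ at S5, against 5.63 and 6.72 in LJ at S1. In blade it was 2.09 and 2.25 at S5, against 5.76 and 6.04 at S1. All S5 libraries were below all S1 libraries. Without LHCB1 in the sum the ratio was 3.38 and 2.41 in LJ and 2.09 and 2.14 in blade at S5. At S1 it was then 5.05 and 6.05 in LJ and 5.16 and 5.29 in blade, so S5 stayed below S1. The order of S4 and S5 did depend on LHCB1. With LHCB1, S4 was above S5, at 4.18 and 3.76 in LJ and 3.97 and 3.60 in blade. Without it, S4 overlapped S5 in each tissue, at 2.26 and 2.65 in LJ and 2.14 and 2.23 in blade.

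**Figure D4:**
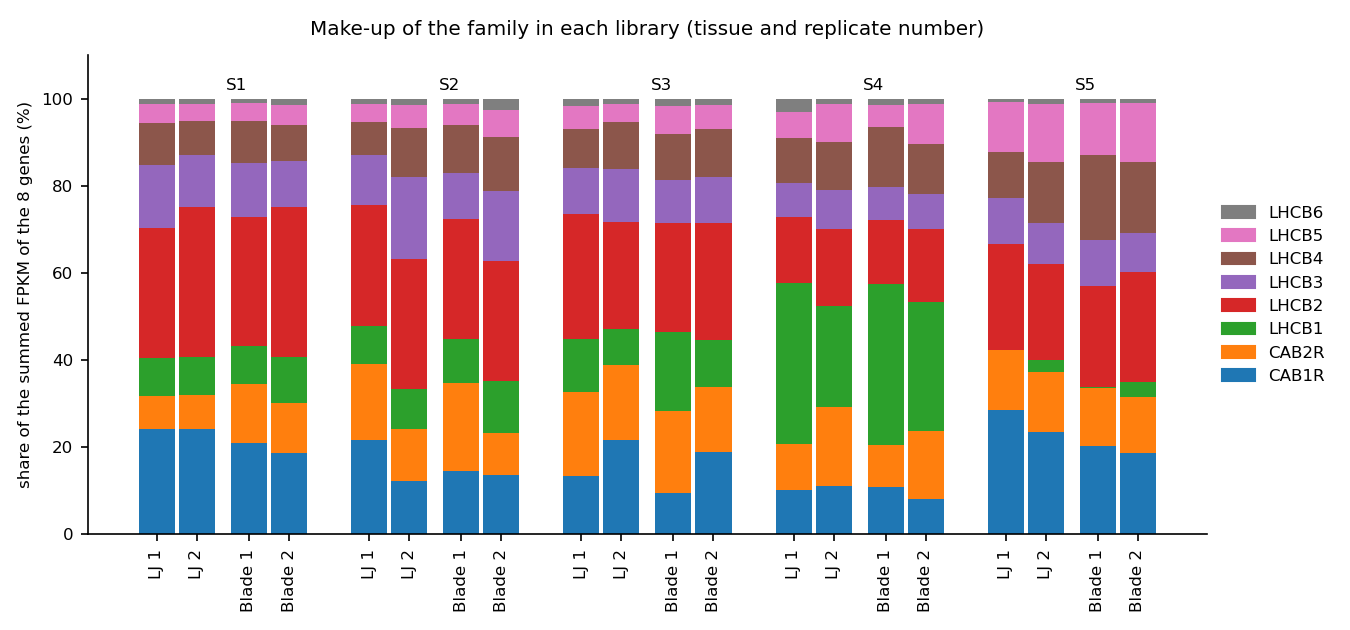
Share of each gene in the summed FPKM of the 8 genes, in percent, for every library, by stage with LJ left of blade. LHCB1 takes 23.2% to 37.1% in the S4 libraries and at most 3.34% in the S5 libraries, where LHCB5 takes 11.4% to 13.5%.

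All 8 genes moved together between the 2 libraries of a group. At S2 and S3 all 8 genes were lower in replicate 2 than in replicate 1, and at S1, S4 and S5 all 8 were higher, in both tissues. The median difference, replicate 2 minus replicate 1 on the log2 scale, was 0.92, -0.77, -1.60, 2.50 and 1.05 in LJ for S1 to S5. In blade it was 0.61, -2.39, -1.64, 2.54 and 0.72. The median over genes that reached 1 FPKM in any library lay between -0.23 and 0.14 in all groups. The share of all genes that moved in the direction of the antenna genes was not counted. Their movement was not particular to them: CAO1 and CHLH, genes of chlorophyll synthesis, had the same direction in every group. PORB and CHLG, of the same pathway, did not. At S5 LHCB1 stood apart, with differences of 5.03 in LJ and 5.47 in blade, against 0.64 to 1.45 in LJ and 0.43 to 0.97 in blade for the other 7 genes.

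Some clock genes differed strongly between the same libraries, and LHY and GI are shown as examples of a list of 6. LHY, a clock transcription factor known in plants for a peak near dawn, stood in LJ at 79.5 and 85.4 FPKM at S1, 61.8 and 21.1 at S2, 291 and 5.09 at S3, 9.81 and 498 at S4, and 95.9 and 363 at S5. In blade LHY stood at 72.4 and 59.2 FPKM at S1, 49.6 and 12.0 at S2, 302 and 8.10 at S3, 7.31 and 541 at S4, and 90.8 and 396 at S5. At S2 to S5, the library of a pair with more LHY had more of all 8 antenna genes in both tissues, and at S1 LHY differed by 0.10 in LJ and -0.29 in blade. GI, a clock gene known for a peak late in the day, stood in LJ at 11.5 and 75.7 FPKM at S3 and at 112 and 21.9 FPKM at S4. In blade GI stood at 20.5 and 108 FPKM at S3 and at 133 and 18.0 FPKM at S4. GI was thus low where LHY was high at those stages.

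The other clock genes differed to varied degrees between the replicates. Replicate 2 minus replicate 1 at S3 was 1.46 in LJ and 2.09 in blade for PRR1, 0.99 and 1.77 for PRR95, 0.19 and 0.39 for PRR37, and -0.11 and -0.01 for PRR73. At S4 it was -3.15 in LJ and -3.61 in blade for PRR1, -1.42 and -2.07 for PRR95, 0.66 and -0.30 for PRR37, and 0.34 and 1.09 for PRR73. PRR1 and PRR95 thus had the sign of GI at S3 and S4, and PRR37 and PRR73 differed by at most 1.09 there. The other stages did not repeat this. At S2 GI was at 0.14 in LJ and 0.38 in blade, and PRR1 at -1.18 and 0.28. PRR95 was at -2.12 and -0.73, PRR37 at -0.85 and -0.39, and PRR73 at -0.79 and -0.68, the sign of LHY. At S5 PRR1, PRR95, PRR37 and PRR73 had the sign of GI, at -1.06 to -0.71. At S1 they and GI were above 0 in both tissues, at 0.13 to 1.61.

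Over the whole list of 6 clock genes, the summed FPKM lay between 92.6 and 578 in the LJ libraries and between 166 and 606 in the blade libraries, and no gene of the 6 was at 0 in any library. With limma, 0 of the 6 were called between LJ and blade over the 5 stages, and 0 had an unadjusted p under 0.05; with pairs, 1 of 6 was lower in LJ. The labels give no hour of collection, and the part of clock phase in the replicate differences was not tested.

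**Figure D5:**
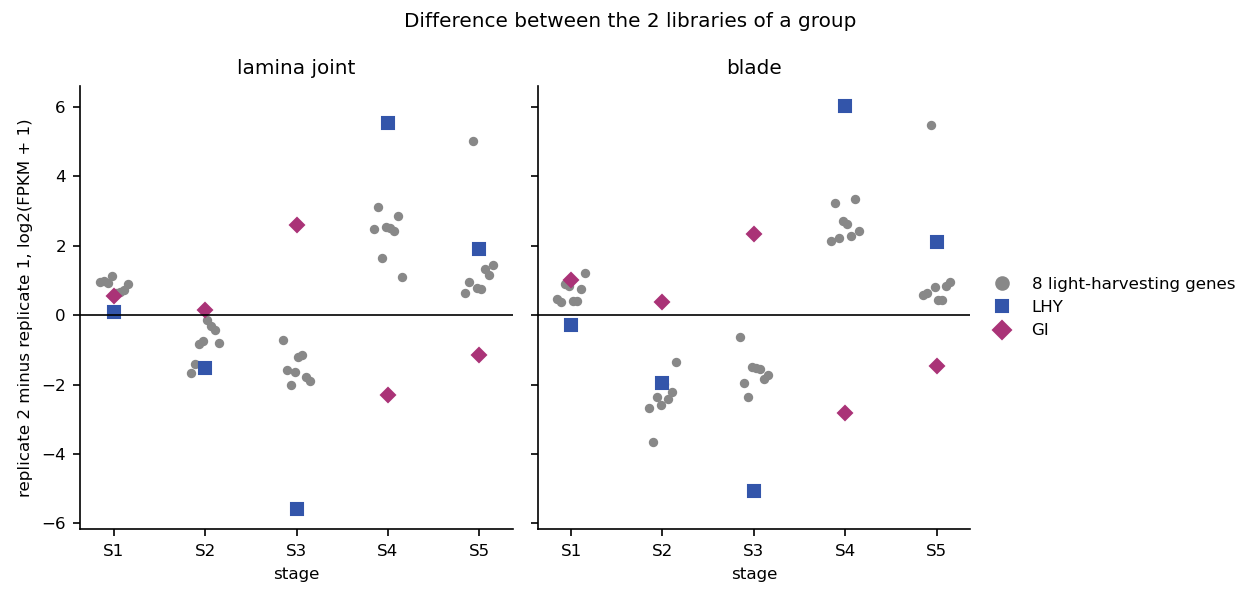
Replicate 2 minus replicate 1 on the log2(FPKM + 1) scale by stage, in LJ (left) and blade (right), for the 8 antenna genes (grey points), LHY (squares) and GI (diamonds). The antenna genes and LHY lie on the same side of 0 from S2 to S5, and GI lies on the other side.

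Other genes of the photosynthetic machinery were taken from lists, whose IDs were entered from background knowledge and are named here only where a check of gene order passed. For LJ minus blade over the 5 stages, the background was 15.1% of all tested genes called lower and 28.3% called higher, and with pairs 21.6% and 37.4%. Of the photosystem I antenna loci 6 of 6 were lower, with a median of -1.57. Of 8 nuclear loci for photosystem II subunits, 6 were lower and 2 were not called, with a median of -1.28; with pairs, 6 were lower and 1 was higher. PSBW, a small subunit of photosystem II, differed by -1.24 ± 0.27 (limma adjusted p = 0.0022). All 4 loci entered for the small subunit of Rubisco, used as markers of green mesophyll, were lower, with a median of -2.35. Their summed FPKM ran from 46.5 to 16862 over the LJ libraries and from 977 to 45361 over the blade libraries, so that markers of green cells and the antenna genes were low in LJ together. The part of the share of green cells in the difference was not tested.

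Genes that supply the antenna with pigment and regulators were read against the same background. Of 13 loci for chlorophyll synthesis, thylakoid targeting and regulation, 8 were lower in LJ and 5 were not called, with a median of -0.65. With LJ and blade as pairs, 13 of 13 were lower. CHLI, a subunit of magnesium chelatase, differed by -1.24 ± 0.28 (limma adjusted p = 0.0033). GLK1 and GLK2, transcription factors that activate antenna genes, differed by -0.65 ± 0.24 and -0.53 ± 0.16 (limma adjusted p = 0.042 and 0.014). CAO1, which makes chlorophyll b, differed by -0.72 ± 0.36 and was not called (limma adjusted p = 0.12). Among 3 genes of chlorophyll breakdown, SGR was higher in LJ by 0.79 ± 0.23 and NOL lower, at -0.71 ± 0.20 (limma adjusted p = 0.013 and 0.012), and with pairs NYC1 was lower too, so that 2 of 3 were lower.

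The change from S1 to S5 was counted in the same lists. In LJ, 34.7% of all tested genes were called higher and 31.2% lower, and in blade 27.2% were called higher and 35.6% lower. In LJ, S5 minus S1 was higher in 5 of 6 photosystem I antenna loci and lower in 1, and higher in 8 of 8 photosystem II subunit loci and in 4 of 4 Rubisco loci. The medians were 2.32, 2.39 and 5.90 on the log2 scale, against 1.05 for the 8 antenna genes of photosystem II. In blade, 1 of 6 photosystem I antenna loci was higher and 1 lower, 2 of 8 photosystem II subunit loci were higher, all shares below the background, and 4 of 4 Rubisco loci were higher. The lists were not tested against each other.

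Pigment genes were called in both directions in this span. Of the 13 supply loci, 4 rose and 6 fell in LJ, and 3 rose and 6 fell in blade, with the rising shares below and the falling shares above the background of each tissue, and the loci were not tested against all genes. PORA, the light-sensitive protochlorophyllide reductase of young seedlings, had 4.85 and 14.0 FPKM in LJ and 2.06 and 2.91 FPKM in blade at S5, against 185 and 571 FPKM in LJ and 1088 and 2424 FPKM in blade at S1. It fell by 5.12 ± 0.80 in LJ and fell by 8.88 ± 0.80 in blade (limma adjusted p = 5.9e-05 and 3.4e-07). GLK2 rose by 2.63 ± 0.35 in LJ and 2.17 ± 0.35 in blade (limma adjusted p = 1.3e-05 and 9.5e-05). NYC1, a chlorophyll b reductase, rose by 2.98 ± 0.44 in LJ and 2.69 ± 0.44 in blade (limma adjusted p = 3.2e-05 and 9.5e-05), with both S5 libraries above both S1 libraries for these 2 genes.

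Markers of other cell types also moved with tissue and stage. DL, a gene of midrib formation, stood at 0.463 and 0.578 FPKM in LJ at S5, against 23.1 and 17.7 FPKM in LJ at S1. In the blade libraries it stood at 0 to 1.72 FPKM. The summed FPKM of 4 shoot meristem genes (OSH1, OSH15, OSH71 and OSH6) was 30.4 and 8.18 in LJ at S1, against 0.473 to 0.780 in blade at S1, and at most 5.81 in the later LJ libraries. OSH1, OSH15 and OSH71 passed the filter, and 3 of 3 were higher in LJ over the 5 stages, against 28.3% of all tested genes. By stage, 3 of 3 were higher at S1, against 1564 of the 26403 tested genes, and 1 of 3 at S5, against 2014. With limma 0 of 3 were called at S2, S3 or S4, against 22.9%, 16.9% and 7.17% of all genes called in either direction. At these 3 stages 0 of 3 had an unadjusted p under 0.05. OSH1 was at 0 in all 4 LJ libraries of S4 and S5 and in all blade libraries after S1. Their part in the tissue difference of the antenna genes was not tested.

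Genes outside the family with the most similar profile were sought over the 10 group means of log2(FPKM + 1). The 5 tested genes nearest to the mean standardised profile of the 8 antenna genes were OS06G0264800 (Pearson r = 0.995), OS04G0457100 (0.994), OS04G0119000 (0.990), OS02G0815300 (0.989) and OS06G0729650 (0.989). The antenna genes themselves had r of 0.740 for LHCB1, 0.912 for LHCB5 and 0.942 to 0.991 for the other 6. Each of them is part of that mean, which raises its r, so these values cannot be ranked against those of outside genes. The groups share libraries and stages, so these values describe the 10 means only.

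OS04G0457100 is the ID next to that of LHCB6. It stood at 78.2 to 3216 FPKM in the LJ libraries and 442 to 4720 FPKM in the blade libraries, 2.68 to 7.32 times the level of LHCB6 in the same library. Whether the 2 loci overlap is not known from the files, and without stranded counting reads of overlapping genes cannot be told apart, so the level of LHCB6 is uncertain to that extent.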

How the data were processed

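RNA was measured in LJ and blade at 5 stages, with groups and replicate numbers taken from the sample titles. TRIzol extraction and an NEBNext Ultra library kit are stated per the labels' protocols; the sources used here give no strandedness. The authors deposited FPKM per feature, and the tools listed in the submitters' processing notes are Cufflinks 2.2.1, TopHat2 2.1.1, Trimmomatic 0.36 and CASAVA 1.8, with IRGSP-1.0 as the build. Each library listed 82632 features, of which 37829 carry rice gene IDs and 44803 others were not used here. FPKM do not keep read counts, so depth is unknown and no counting interval is given. No 2 libraries held identical values.

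The 26403 genes that reached 1 FPKM in 2 or more libraries were put on the log2(FPKM + 1) scale and fitted in R 4.3.3 by limma 3.58.1 with its intensity trend. All 10 groups entered the same fit, which had 10 residual and 4.09 prior degrees of freedom and gave 25 comparisons. The threshold was 0.05 on p adjusted by Benjamini-Hochberg over the tested genes. Levels carry the SD of 2 libraries and differences the SE of the fit. The pseudocount makes the change of genes at low FPKM look smaller.

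The members and gene lists were chosen with earlier results of these data known. The rule named all 8 members, counts, medians and examples of the lists, and the 5 tested genes with the highest r to the mean profile. The LG1, DL and clock genes shown were named as checks and examples. The RefSeq annotation used (ASM3414082v1) is of another assembly, so list IDs were checked only by chromosome and position in gene order within 2%. Of the 8 members, 3 passed and 5 (LHCB1, LHCB3, LHCB4, LHCB5 and LHCB6) had no entry, so their names rest on the ID list alone. Of the other list genes, 25 passed, 23 had no entry and are counted but not named, and 1 was contradicted, so its list of lamina joint genes is not counted. No sequences or coordinates are given.

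The replicate difference correlated between LJ and blade of the same stage at 0.213 to 0.774 and between different stages at -0.442 to 0.197 (median -0.0573), so same-numbered libraries were read as pairs within a stage, in a fit with 5 residual degrees of freedom. The pairing comes from this check, not from the labels, and at S2 the 0.213 is little above the highest value between different stages. Also tried were quantile normalization, upper quartile scaling, no filter or one at 5 FPKM, a pseudocount of 0.1, the replicate number as an additive term, only the groups compared, and leaving out each library in turn, with the lone library left taken to vary as other groups do. Leaving out S4 was added after seeing the data.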

Additional observations from a re-analysis of the deposited data

Results flagged for a closer look

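Of 40 tests of whether a stage change of an antenna gene differed between LJ and blade, 0 were called with limma and no pairing, and 2 were called with LJ and blade libraries as pairs. The S5 minus S1 change of CAB1R was larger in LJ than in blade by 1.06 ± 0.34 (SE, limma adjusted p = 0.044, 2 pairs per stage). CAB1R stood at 1239 and 1934 FPKM in LJ and at 2387 and 3554 FPKM in blade at S5, against 463 and 892 FPKM in LJ and 2149 and 2977 FPKM in blade at S1. The S4 minus S3 change of LHCB6 was larger in LJ than in blade by 1.42 ± 0.41 (SE, limma adjusted p = 0.0429). LHCB6 stood at 320 and 692 FPKM in LJ and at 208 and 1127 FPKM in blade at S4, against 270 and 71.9 FPKM in LJ and 698 and 211 FPKM in blade at S3. Both rest on 2 pairs at each stage. With pairs, 21.0% of all tested genes were called higher in LJ than in blade for the S5 minus S1 change. For the S4 minus S3 change the share was 10.8%. Of the antenna genes, 1 was called in each, so these calls need not be particular to CAB1R or LHCB6.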

How the results depend on the processing

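Counts here are of antenna genes called of 8 with limma. Shares of all genes called are given above only for the main fit and the fit with pairs. They can change with the setting too, so a moved count, here or above, need not be particular to the antenna genes. The LJ minus blade mean over 5 stages (7 called) gave 4 with no filter and 3 to 7 with a library left out. LJ minus blade within stages (0 called at S1, S2, S3 and S5) gave 8, 8, 8 and 7 with a replicate block that pairs LJ and blade libraries. At S1 it gave 8 with only the groups compared, 1 with quantile normalization and 2 without S4; at S2 it gave 1 with only the groups compared and 0 to 1 with a library left out. The block also gave 1 gene each, against 0, for the tissue difference in the S5 minus S1 and S4 minus S3 changes, and moved no other count of antenna genes by over 1.5 times. With only the groups compared, S3 minus S2 in LJ gave 1, against 0.

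For S5 minus S1, LJ (1 called) gave 0 with no filter or upper quartile scaling, 2 with quantile normalization, 3 with only the groups compared and 0 to 1 with a library left out; blade (0 called) gave 2 with only the groups compared and 0 to 1 with a library left out. S5 minus S4 gave 0 to 2 in LJ (2 called) and 0 to 2 in blade (1 called) with a library left out, and 0 in blade with only the groups compared. With only the groups compared, LJ at S2 minus blade at S1 gave 4, against 0, and LJ at S5 minus blade at S4 gave 1, against 3, and 1 to 7 with a library left out. The cause of these moves was not tested beyond the change in samples and degrees of freedom that each alternative makes. No called difference changed sign.

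Upper quartile scaling and quantile normalization moved the median difference of all genes by over 0.1 (log2) in 10 and 18 of 25 comparisons, by up to -0.39 and -0.47 in LJ at S5 minus blade at S4, where the median was 0.53. With 2 libraries a group and unknown depth, differences within a stage rest on few degrees of freedom.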
